A study of Mus musculus with 4 samples.

Results

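MHC class II-rich macrophages are described here as they appear in dissociated skeletal muscle of dystrophic mice: cells that carry complement C1q transcripts, the sign of a tissue macrophage, together with many transcripts of the MHC class II heterodimer. A barcode first had to hold at least 500 UMIs (unique molecular identifiers, each standing for 1 captured transcript) and at least 300 genes, with at most 15% mitochondrial UMIs. It was then taken as a class II-rich macrophage if it held at least 10 UMIs summed over C1qa, C1qb and C1qc and at least 10 over H2-Aa and H2-Ab1, at most 2 over Spp1 and Gpnmb, at most 1 over Folr2, Cd163 and Lyve1, at most 1 over the cycling genes Mki67 and Top2a, and none of Pdgfra or Cdh5. The rule chose 970 of 31077 cells. The cells were chosen by these measured values, so the levels of the 14 rule genes describe the choice and support nothing.

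Mononuclear cells came from mdx5cv/Ccr2-/- mice and mdx5cv mice at 14 weeks of age, from the quadriceps and the diaphragm of each, with 1 library per genotype and muscle. Every library therefore carries the mdx5cv mutation, a dystrophin deficiency that models Duchenne muscular dystrophy, and no muscle with dystrophin was included. The mdx5cv/Ccr2-/- mice lack in addition Ccr2, the chemokine receptor by which classical monocytes leave the bone marrow and enter tissue. The sources used here do not give the number of animals in a library, which stretch of Ccr2 was removed, or the strain background of the knockout mice. With 1 library per group, no difference below has a replicate check and none carries a p-value. Intervals are exact 95% intervals that cover counting error only, not the variation between animals, dissections or cells.

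MHC class II molecules present peptides from engulfed material to CD4 T cells. Their alpha and beta chains assemble with the invariant chain encoded by Cd74. The invariant chain is trimmed by cathepsin S and exchanged for peptide by the H2-DM editor. The genes of the class II chains, the invariant chain and H2-DM are switched on by the transactivator Ciita. In many adult tissues, macrophages with high class II and Ccr2 are replenished from blood monocytes, while macrophages with Folr2, Lyve1 or Timd4 depend less on them. Interferon-gamma is the classical inducer of Ciita, and type I interferons drive a separate antiviral set of genes.

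The 4 libraries held between 56399477 and 92189580 UMIs, and the median cell that passed the filter held between 6122 and 9126. The class II-rich macrophages numbered 82 in the mdx5cv/Ccr2-/- quadriceps, 165 in the mdx5cv quadriceps, 62 in the mdx5cv/Ccr2-/- diaphragm and 661 in the mdx5cv diaphragm. Their summed counts came to 729435, 1674681, 595562 and 4283103 UMIs in that order, so that a gene with no UMI may still stand at up to 4.11, 1.79, 5.04 and 0.7 CPM, the value of 3 counts. CPM here scales the UMIs of a gene to the total UMIs of the summed cells of its library. The values of the mdx5cv diaphragm are thus the most precise, and the 2 libraries without Ccr2 limit what can be seen of low genes. Pairs of libraries shared between 7 and 28 cell barcodes. Of the class II-rich macrophages, 4 had a barcode also present in another library and 0 were chosen in 2 libraries.

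The promoters of class II genes hold the X and Y boxes through which Ciita and its partners act. They are shown here because the class II transcripts define these cells. RefSeq promoter windows of 250 bases before to 50 bases after the gene start (GRCm38.p6) were found for 12 of 15 class II presentation genes, namely the 13 partners of the list used below with H2-Aa and H2-Ab1. The H2-Eb1 window is at chr17:34305753-34305861 on the plus strand, with an X box core (AACNGATG) and 2 Y boxes (CCAAT on either strand) in capitals, and the H2-Aa window at chr17:34287842-34287896 on the minus strand, with 1 Y box in capitals.
H2-Eb1: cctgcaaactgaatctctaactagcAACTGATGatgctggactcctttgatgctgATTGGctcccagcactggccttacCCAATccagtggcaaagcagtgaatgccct
H2-Aa: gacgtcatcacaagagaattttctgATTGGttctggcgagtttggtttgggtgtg
Both motifs were searched on both strands of the full windows, and they do not overlap each other in the stretches printed. AACNGATG was found in 5 of the 12 genes (41.7%; Ctss, H2-DMb1, H2-DMb2, H2-Eb1 and H2-Eb2), against 2.32% of all 32851 promoters. CCAAT was found in 10 of 12 (83.3%), against 37.4% of all promoters. A match is a description of the letters, not a bound site.

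By the markers of macrophages the label held. The class II-rich cells carried Csf1r, the receptor for the macrophage growth factor CSF1, at 529 CPM in the mdx5cv/Ccr2-/- quadriceps, 549 in the mdx5cv quadriceps, 675 in the mdx5cv/Ccr2-/- diaphragm and 566 in the mdx5cv diaphragm. The macrophage adhesion receptor Adgre1 (F4/80) stood at 296, 401, 376 and 395 CPM in the same order, and the apoptotic cell receptor Mertk at 52.1, 53.7, 75.6 and 63.3 CPM. Cx3cr1, the fractalkine receptor, stood at 352, 396, 695 and 609 CPM. In cells chosen as conventional dendritic-like (at most 2 C1q UMIs, at least 10 class II UMIs and at least 2 UMIs of Flt3, Cd209a and Zbtb46), Adgre1 ranged only between 13.4 and 25.7 CPM.

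Defining genes of dendritic cells were near 0 in the class II-rich macrophages. Flt3, the growth factor receptor of dendritic cells, stood at 0.0, 2.39, 1.68 and 1.87 CPM in the order mdx5cv/Ccr2-/- quadriceps, mdx5cv quadriceps, mdx5cv/Ccr2-/- diaphragm and mdx5cv diaphragm, against 123 to 172 CPM in dendritic-like cells. The lectin Cd209a stood at 2.74, 4.78, 15.1 and 12.4 CPM, against 545 to 798 CPM. Any UMI of Flt3, Zbtb46, Cd209a, Xcr1, Clec9a or Ccr7 was held by 8.54% of cells in the mdx5cv/Ccr2-/- quadriceps, 8.48% in the mdx5cv quadriceps, 14.5% in the mdx5cv/Ccr2-/- diaphragm and 7.72% in the mdx5cv diaphragm. Over 20 dendritic cell genes the summed level was between 374 and 539 CPM, against 3113 to 3603 CPM in dendritic-like cells. The dendritic-like cells were chosen by their UMIs of Flt3, Cd209a and Zbtb46, so their levels of these genes, and part of the sum, follow from the choice and give a scale only. The dendritic genes include Itgax, which macrophages also carry.

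**Figure D1:**
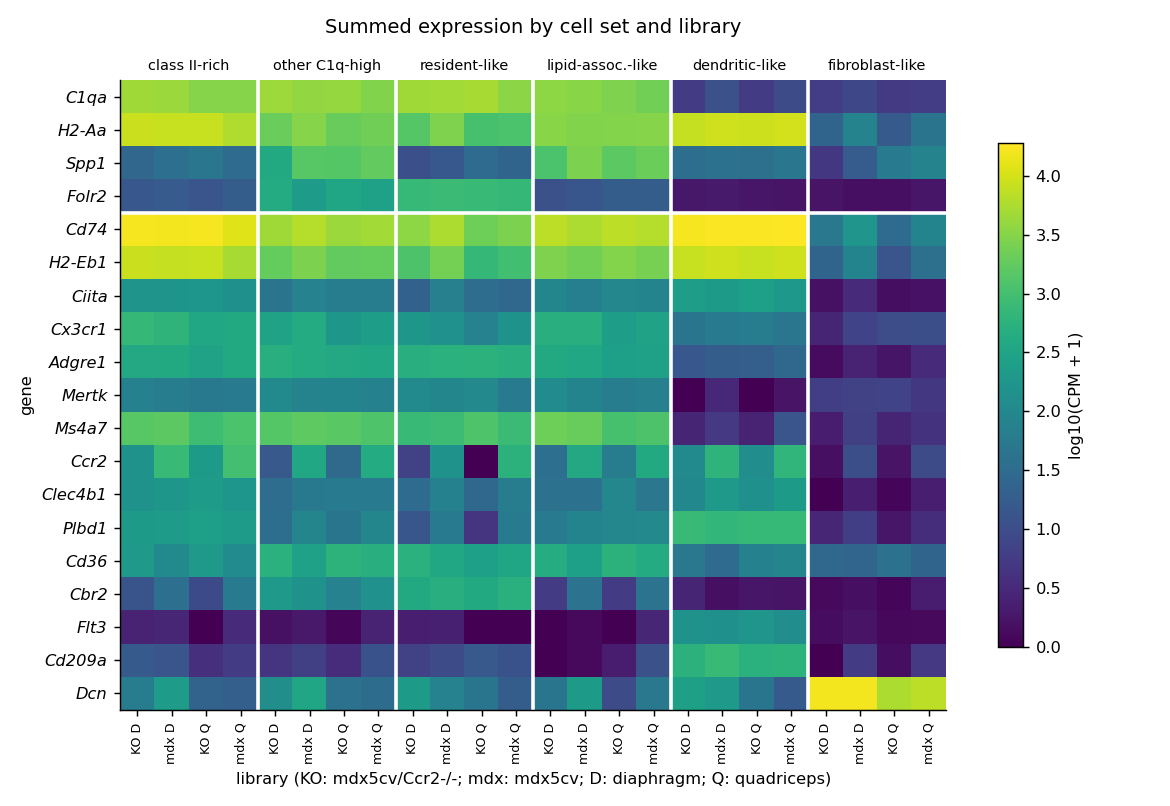
Summed expression, as log10(CPM + 1), of 19 genes in 6 sets of cells, with 1 column for each library (KO, mdx5cv/Ccr2-/-; mdx, mdx5cv; Q, quadriceps; D, diaphragm); the 4 genes above the white line took part in choosing the macrophage sets. Class II-rich macrophages share Cd74, H2-Eb1 and Ciita with dendritic-like cells and Adgre1, Mertk and Ms4a7 with the other macrophages.

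The limits of the rule cut through a continuum. Of the class II-rich macrophages, 35 had between 10 and 14 class II UMIs, while 34 further cells met all other limits with 5 to 9. At the limit on Spp1 and Gpnmb, 123 held the highest permitted sum of 2, and 133 further cells had 3 to 4. At the limit on resident markers, 143 held 1 UMI, and 141 further cells had 2 to 3. The median class II-rich macrophage devoted 1.55% of its UMIs to H2-Aa and H2-Ab1 in the mdx5cv/Ccr2-/- quadriceps, 1.1% in the mdx5cv quadriceps, 1.64% in the mdx5cv/Ccr2-/- diaphragm and 1.59% in the mdx5cv diaphragm. The other C1q-high macrophages, which met the C1q limit and lacked cycling genes, Pdgfra and Cdh5 but fell outside the class, devoted 0.0668%, 0.17%, 0.085% and 0.353% to them.

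Class II-rich macrophages were scarcer among the cells of mdx5cv/Ccr2-/- mice in both muscles. In the quadriceps they were 1.2% (0.959 to 1.49) of mdx5cv/Ccr2-/- cells and 3.15% (2.69 to 3.66) of mdx5cv cells, which gave a ratio of 0.382 (0.290 to 0.501). Diaphragm cells held 0.962% (0.738 to 1.23) of them in mdx5cv/Ccr2-/- and 5.25% (4.87 to 5.66) in mdx5cv mice, a ratio of 0.183 (0.139 to 0.238). The intervals of the 2 genotypes did not overlap in either muscle. A share of cells gives no absolute number. All C1q-high cells, with or without class II, were also scarcer: they were 9.68% of mdx5cv/Ccr2-/- and 16.6% of mdx5cv quadriceps cells, and 5.85% of mdx5cv/Ccr2-/- and 12.5% of mdx5cv diaphragm cells.

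Among C1q-high macrophages alone the class was also smaller without Ccr2. It held 12.4% (10.0 to 15.2) of them in the mdx5cv/Ccr2-/- quadriceps and 18.9% (16.4 to 21.7) in the mdx5cv quadriceps, a ratio of 0.658 (0.498 to 0.862). It held 16.4% (12.8 to 20.6) in the mdx5cv/Ccr2-/- diaphragm and 42.2% (39.7 to 44.7) in the mdx5cv diaphragm, a ratio of 0.390 (0.296 to 0.506). Each limit of the rule took a different share of the other cells: fewer than 10 class II UMIs were held by 47.2% of C1q-high macrophages in the mdx5cv/Ccr2-/- quadriceps, 33.6% in the mdx5cv quadriceps, 45.6% in the mdx5cv/Ccr2-/- diaphragm and 21.3% in the mdx5cv diaphragm. Resident markers beyond the limit were held by 50.4%, 44.0%, 62.3% and 25.5%, and Spp1 with Gpnmb beyond the limit by 61.2%, 58.6%, 27.1% and 33.2%.

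With Ccr2 present, the diaphragm was the richer muscle in the class. It was a larger share of C1q-high macrophages in the mdx5cv diaphragm than in the mdx5cv quadriceps, by a ratio of 2.23 (1.88 to 2.66), and of all cells by 1.67 (1.40 to 1.99). Without Ccr2 the same ratios were 1.32 (0.935 to 1.86) and 0.799 (0.565 to 1.12), and both intervals include 1. The limits are raw UMIs, and depth differed between the libraries. The median class II-rich macrophage held 8347.5 UMIs in the mdx5cv/Ccr2-/- quadriceps, 10115 in the mdx5cv quadriceps, 9480 in the mdx5cv/Ccr2-/- diaphragm and 6090 in the mdx5cv diaphragm. With cells thinned to 5000 UMIs, the limits lowered to match and shallower cells left out, the genotype ratio among C1q-high macrophages of the diaphragm was 0.524 and the ratio of all cells between mdx5cv muscles was 1.22. That setting kept 7833 of 12582 cells of the mdx5cv diaphragm and 3581 of 5238 of the mdx5cv quadriceps, so it also counts other cells, and the part of depth in the shares was not tested.

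**Figure D2:**
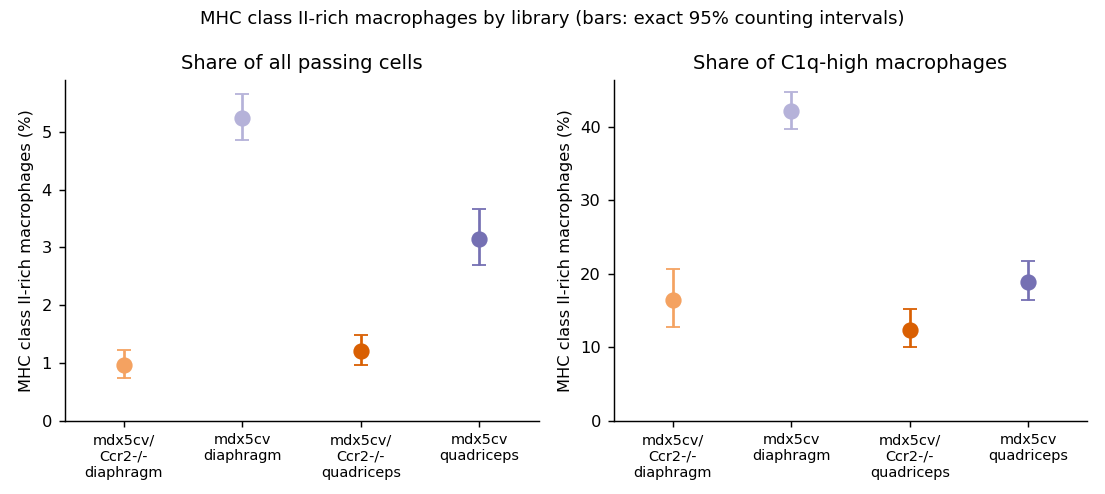
Class II-rich macrophages as a percentage of all cells that passed the filter (left) and of C1q-high macrophages (right), 1 point for each library with its exact 95% counting interval. The mdx5cv diaphragm is the highest in both panels, at 5.25% of all cells and 42.2% of C1q-high macrophages.

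Set against the other C1q-high macrophages of the same library, the class II-rich cells carried more of the class II presentation genes and of Ccr2, and less of several lysosomal, lipid and resident macrophage genes. The 2 sets were split by the rule, so these values describe them without a test. A gene was taken here if either set held it at a mean of at least 20 CPM and at least 50 UMIs over the 4 libraries. Of the 5597 such genes, 15 (0.268%) were at least 2-fold higher in class II-rich cells in all 4 libraries. At least 2-fold lower in all 4 were 27 (0.482%). Both were counted on log2 ratios with 5 CPM added to each value. The beta chain gene H2-Eb1 and the invariant chain gene Cd74, partners of the rule genes, were 2.89- to 4.7-fold and 2.49- to 3.86-fold higher. Ciita stood at 175 CPM in class II-rich cells and 64.1 CPM in other macrophages of the mdx5cv/Ccr2-/- quadriceps, and at 137 and 63.4 CPM in those of the mdx5cv quadriceps. In the mdx5cv/Ccr2-/- diaphragm it stood at 160 CPM in class II-rich cells and 43.7 CPM in other macrophages, and in the mdx5cv diaphragm at 164 and 76.6 CPM. The peptide editor subunit H2-DMb1 was 2.19- to 3.43-fold higher.

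Genes outside antigen presentation went with them. Plbd1, a phospholipase B-like lysosomal protein gene, stood at 254 CPM in class II-rich cells and 45.4 CPM in other macrophages of the mdx5cv/Ccr2-/- quadriceps, and at 234 and 90.8 CPM in those of the mdx5cv quadriceps. In the mdx5cv/Ccr2-/- diaphragm it stood at 217 CPM in class II-rich cells and 34.6 CPM in other macrophages, and in the mdx5cv diaphragm at 233 and 86.5 CPM. The C-type lectin gene Clec4b1 was 3.24- to 4.74-fold higher, the lymphocyte and myeloid activation marker Cd69 2.81- to 4.46-fold and the membrane protein gene Tmem176a 2.15- to 3.07-fold. Only 3 class II-rich cells of the mdx5cv/Ccr2-/- diaphragm held Cd69, and 1 of them held 82.4% of its UMIs. The Cd69 value of that library therefore rests on 1 cell. Ccr2 stood at 1005 CPM in class II-rich cells and 423 CPM in other macrophages of the mdx5cv quadriceps, and at 805 and 346 CPM in those of the mdx5cv diaphragm. In the mdx5cv/Ccr2-/- quadriceps it stood at 212 CPM in class II-rich cells and 29.5 CPM in other macrophages, and in the mdx5cv/Ccr2-/- diaphragm at 154 and 14.7 CPM. The class II-rich cells were thus the Ccr2-richer macrophages of each library, by 2.33- to 10.5-fold. Adgre4, Tnip3 and Rnase6 complete the 12 genes with the highest smallest ratio.

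Genes lower in class II-rich cells included the lysosomal protease Ctsd, at 1101 CPM in class II-rich cells and 3921 CPM in other macrophages of the mdx5cv/Ccr2-/- quadriceps and within 0.265 to 0.291 of the other macrophages in all 4 libraries. The fatty acid chaperone Fabp5 was at 0.119 to 0.328 of them, the lipid scavenger receptor Cd36 at 0.234 to 0.382, the transferrin receptor Tfrc at 0.0842 to 0.219 and the bridge to apoptotic cells Mfge8 at 0.056 to 0.314. The carbonyl reductase Cbr2, a resident macrophage gene, was at 0.0565 to 0.383, and the chemokine gene Ccl8 at 0.0672 to 0.398. The endothelin receptor Ednrb had the lowest range, 0.0222 to 0.111, and Atp6v0d2, Mgst1, Vat1 and Ccl24 complete the 12. In class II-rich cells Ednrb stood at 1.37 to 6.57 CPM, Tfrc at 1.68 to 5.97 CPM and Mfge8 at 7.94 to 13.4 CPM. These 3, with Mgst1 and Ccl24, were measured only through the other macrophages, where they were higher. The lowest values of Ednrb and Tfrc are those of 1 UMI. Spp1, Gpnmb and the resident markers chose the other side of this comparison, so lipid and resident genes that travel with them are linked with the choice.

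The knockout target was examined first between genotypes. In class II-rich macrophages Ccr2 (ENSMUSG00000049103) stood at 212 CPM in the mdx5cv/Ccr2-/- quadriceps and 1005 CPM in the mdx5cv quadriceps, which gave a ratio of 0.211 (0.178 to 0.249). Diaphragm cells carried it at 154 CPM in mdx5cv/Ccr2-/- and 805 CPM in mdx5cv mice, a ratio of 0.192 (0.154 to 0.236). The libraries labelled as knockout were lower in both muscles. Thinned to 3000 UMIs, 35.9% (25.3 to 47.6) of class II-rich cells still held a Ccr2 UMI in the mdx5cv/Ccr2-/- quadriceps and 19.3% (10.0 to 31.9) in the mdx5cv/Ccr2-/- diaphragm, against 75.2% (67.6 to 81.7) and 63.5% (59.5 to 67.4) in the mdx5cv quadriceps and diaphragm. Fibroblast-like cells at the same depth, which should lack it, held one in 0.0743% to 1.46%. A read from the 3′ end of the transcript, outside a deleted stretch, still counts as Ccr2, and these UMIs check nothing about the receptor.

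Between genotypes 62 of 5162 measured genes (1.2%) were at least 2-fold higher in mdx5cv/Ccr2-/- class II-rich macrophages of the quadriceps and 88 (1.7%) at least 2-fold lower. In the diaphragm 10 (0.194%) were at least 2-fold higher, a count that lay between 17 and 137 under 8 of the alternative settings, and 77 (1.49%) at least 2-fold lower. In both muscles 4 genes (0.0775%) were higher and 34 (0.659%) lower, and 4 (0.0775%) were past 2-fold in opposite directions. These last, named after their values were seen, were Cilp, Lyz1 and Sox4 (higher in the quadriceps) and Tnfrsf23 (higher in the diaphragm). A gene counted as measured with a mean of at least 20 CPM and at least 50 UMIs over the 4 sums. The genes of each group below belong to lists or rank highest by the smaller of their 2 log2 ratios.

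Several genes of recent blood monocytes were lower without Ccr2. Of 20 listed monocyte genes 9 were measured, and 4 of these were at least 2-fold lower in both muscles: Ccr2, which is the targeted gene, and Ly6c2, Plac8 and Ms4a4c. With Ccr2 included, 2 of the 9 lay above 0 in the quadriceps and 0 in the diaphragm, with list medians on the log2 scale of −0.60 in the quadriceps and −0.58 in the diaphragm, against 0.04 and 0.01 over all measured genes. Ly6c2, the surface antigen of classical monocytes, had 0 UMIs in the mdx5cv/Ccr2-/- quadriceps and 170 in the mdx5cv quadriceps, at least 24.7-fold lower with the 0 taken as 3 counts. In the diaphragm it had 1 UMI in mdx5cv/Ccr2-/- cells and 175 in mdx5cv cells, a ratio of 0.0411 (0.00103 to 0.232). Plac8 had 3 UMIs in the mdx5cv/Ccr2-/- quadriceps, all in 1 cell, against 249 in the mdx5cv quadriceps. In the diaphragm it had 0 UMIs in mdx5cv/Ccr2-/- cells and 228 in mdx5cv cells, at least 10.6-fold lower. Ms4a4c, a tetraspan gene of monocytes, stood at 57.6 CPM in mdx5cv/Ccr2-/- and 222 CPM in mdx5cv quadriceps cells, and at 31.9 CPM in mdx5cv/Ccr2-/- and 188 CPM in mdx5cv diaphragm cells.

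The median of the monocyte list was below 0 in the other sets of cells as well. It was −1.04 and −1.52 in the other C1q-high macrophages of quadriceps and diaphragm, −0.45 and −0.26 in dendritic-like cells, and −0.30 and −0.38 in fibroblast-like cells. Thinned to 3000 UMIs, Ly6c2 was found in 0% (0 to 4.62) of class II-rich cells of the mdx5cv/Ccr2-/- quadriceps and 11.5% of those of the mdx5cv quadriceps. In the diaphragm it was found in 0% (0 to 6.27) of mdx5cv/Ccr2-/- cells and 3.53% of mdx5cv cells. Unthinned, the share was 18.2% in the mdx5cv quadriceps and 5.75% in the mdx5cv diaphragm. Among fibroblast-like cells thinned alike, Ly6c2 was found in 0.729% in the mdx5cv quadriceps and 0.224% in the mdx5cv diaphragm, from median depths of 15296 and 7602 UMIs.

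Type I interferon response genes, the antiviral set, were lower without Ccr2 as well. Of 19 listed genes 16 were measured, and all 16 had a log2 ratio below 0 in both muscles. At least 2-fold lower were 12 in the quadriceps, 11 in the diaphragm and 9 in both, and the list medians were −1.62 and −1.18. The ubiquitin-like modifier Isg15 (ENSMUSG00000035692) stood at 37.0 CPM in mdx5cv/Ccr2-/- and 151 CPM in mdx5cv quadriceps cells, a ratio of 0.245 (0.158 to 0.365), and at 38.6 CPM in mdx5cv/Ccr2-/- and 148 CPM in mdx5cv diaphragm cells, a ratio of 0.262 (0.165 to 0.396). Irf7, a transcription factor that interferon induces and that in turn raises interferon output, stood at 34.3 CPM in mdx5cv/Ccr2-/- and 138 CPM in mdx5cv quadriceps cells, and at 15.1 CPM in mdx5cv/Ccr2-/- and 96.4 CPM in mdx5cv diaphragm cells. Ifit2, an inhibitor of viral translation, had a quadriceps ratio of 0.132 (0.0559 to 0.268) and a diaphragm ratio of 0.152 (0.0723 to 0.281).

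Promoter stretches of 3 of these genes are shown for the interferon response motif that interferon-activated transcription factors recognise. The windows are at chr4:156200850-156200921 (minus strand) for Isg15, chr19:34583348-34583441 (plus strand) for Ifit3 and chr12:26456538-26456597 (minus strand) for Rsad2, from RefSeq on GRCm38.p6. Capitals mark 2 copies of GAAA (or TTTC on the opposite strand) with any 2 bases between them, and in Isg15 they cover 3 matches that overlap one another.
Isg15: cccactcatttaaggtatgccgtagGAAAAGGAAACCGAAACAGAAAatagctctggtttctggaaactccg
Ifit3: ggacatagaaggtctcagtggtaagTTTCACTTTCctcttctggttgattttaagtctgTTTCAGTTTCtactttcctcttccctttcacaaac
Rsad2: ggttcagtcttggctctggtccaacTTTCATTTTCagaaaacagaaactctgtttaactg
The motif was found in 7 of the 14 listed interferon genes that the promoter table held (50%; Bst2, Ifit1, Ifit3, Isg15, Oas1a, Rsad2 and Stat2), against 3.44% of all promoters and 1 of the 12 class II genes. The X box core was found in 0 of the 14. Ifit3 stood at 16.5 CPM in mdx5cv/Ccr2-/- and 63.9 CPM in mdx5cv quadriceps cells, and at 31.9 CPM in mdx5cv/Ccr2-/- and 91.1 CPM in mdx5cv diaphragm cells. Rsad2, which encodes the antiviral enzyme viperin, stood at 15.1 CPM in mdx5cv/Ccr2-/- and 57.3 CPM in mdx5cv quadriceps cells, and at 18.5 CPM in mdx5cv/Ccr2-/- and 71.4 CPM in mdx5cv diaphragm cells.

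Members of the interferon list with smaller differences had the same sign. The virus-tethering protein gene Bst2 had ratios of 0.436 (0.358 to 0.528) and 0.580 (0.486 to 0.689) in quadriceps and diaphragm. Ifi27l2a stood at 651 CPM in mdx5cv/Ccr2-/- and 2003 CPM in mdx5cv quadriceps cells, and at 1011 CPM in mdx5cv/Ccr2-/- and 1621 CPM in mdx5cv diaphragm cells. Usp18, which removes ISG15 from proteins, had log2 ratios of −0.66 and −0.21. The other C1q-high macrophages had medians of the same sign, −1.04 and −0.85, and fibroblast-like cells had −0.38 and −0.29. Whether the class II-rich macrophages differed from these sets could not be tested with 1 library per group.

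Interferon genes were also found in smaller shares of the cells, most clearly Irf7. Thinned to 3000 UMIs, Irf7 was found in 8.97% (3.68 to 17.6) of mdx5cv/Ccr2-/- and 29.3% (22.3 to 37.1) of mdx5cv quadriceps cells, and in 3.51% (0.428 to 12.1) of mdx5cv/Ccr2-/- and 20.8% (17.6 to 24.3) of mdx5cv diaphragm cells. Fibroblast-like cells held it in 3.2% to 6.95%, a level that the mdx5cv/Ccr2-/- diaphragm share did not exceed. Isg15 was found in 8.97% of mdx5cv/Ccr2-/- and 21.7% of mdx5cv quadriceps cells, and in 14% of mdx5cv/Ccr2-/- and 21.3% of mdx5cv diaphragm cells. Fibroblast-like cells held Isg15 in 7.51% to 14.9%, so the mdx5cv/Ccr2-/- shares of this gene were not above that level, and in the diaphragm the intervals of the genotypes (6.26 to 25.8 and 18.1 to 24.9) overlapped.

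**Figure D3:**
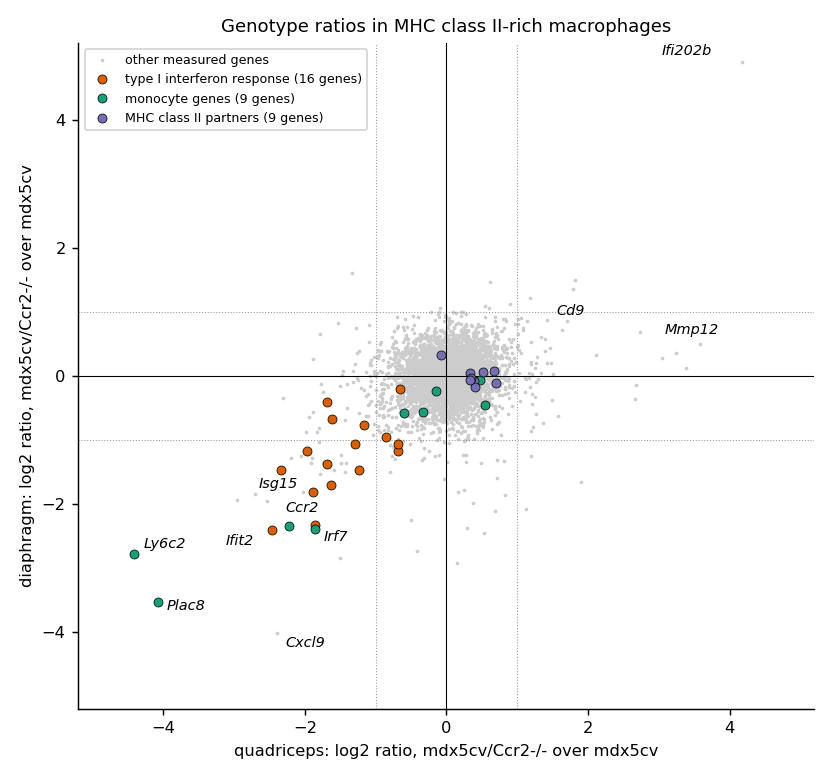
Log2 ratios of mdx5cv/Ccr2-/- over mdx5cv in class II-rich macrophages, quadriceps on the horizontal and diaphragm on the vertical axis, 1 point for each measured gene with a symbol of its own, with dotted lines at 2-fold. All 16 interferon genes and Ccr2, Ly6c2 and Plac8 lie in the lower left, and the 9 class II partners lie near 0 in the diaphragm and mostly above 0 in the quadriceps.

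Within the class, which the rule chose by class II UMIs, the class II machinery was not lower without Ccr2. Of 9 measured class II partners none passed 2-fold in either muscle, and the list medians were 0.39 in the quadriceps and −0.04 in the diaphragm. Cd74 stood at 16872 CPM in mdx5cv/Ccr2-/- and 11821 CPM in mdx5cv quadriceps cells, a ratio of 1.43 (1.40 to 1.46), and at 16766 CPM in mdx5cv/Ccr2-/- and 16063 CPM in mdx5cv diaphragm cells, a ratio of 1.04 (1.02 to 1.07). H2-Eb1 had ratios of 1.59 (1.54 to 1.65) and 1.06 (1.03 to 1.09), and Ciita 1.28 (1.03 to 1.60) and 0.975 (0.778 to 1.21). The mdx5cv quadriceps was the lowest of the 4 libraries for each of these genes. The rule required at least 10 class II UMIs in every cell, so these genes are linked with the choice, and the level in the class says nothing of the macrophages left out. In the other C1q-high macrophages, a set also split by the rule, the list medians were −0.03 in the quadriceps and −0.56 in the diaphragm. There 8 of the 9 partners lay below 0 in the diaphragm.

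MHC class I presentation, which interferons also raise, was slightly lower. Of 15 measured genes 14 in the quadriceps and 12 in the diaphragm had a log2 ratio below 0, with list medians of −0.44 and −0.30. The peptide transporter Tap1 was the member past 2-fold in the quadriceps, with ratios of 0.338 (0.208 to 0.526) there and 0.598 (0.394 to 0.874) in the diaphragm. The class I heavy chain H2-K1 stood at 1095 CPM in mdx5cv/Ccr2-/- and 1533 CPM in mdx5cv quadriceps cells, and at 1002 CPM in mdx5cv/Ccr2-/- and 1420 CPM in mdx5cv diaphragm cells. All 7 measured interferon-gamma response genes were below 0 in both muscles, with medians of −0.67 and −0.57. Cxcl9, a chemokine induced by interferon-gamma, had 1.37 CPM in mdx5cv/Ccr2-/- and 28.7 CPM in mdx5cv quadriceps cells, but 93.8% of the mdx5cv UMIs lay in 1 cell. Its diaphragm log2 ratio of −4.01 became 1.45 when the rule was applied to cells thinned to 5000 UMIs.

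Further genes lower in both muscles ranged over transport, coagulation and complement. Apoc2, an apolipoprotein that activates lipoprotein lipase, had ratios of 0.196 (0.0953 to 0.362) and 0.223 (0.0953 to 0.446). F13a1, coagulation factor XIII A and a gene of resident macrophages, had ratios of 0.276 (0.202 to 0.371) and 0.331 (0.239 to 0.448), and Cbr2 had 0.148 (0.0530 to 0.335) and 0.329 (0.130 to 0.694). Complement C3 stood at 4.11 CPM in mdx5cv/Ccr2-/- and 32.8 CPM in mdx5cv quadriceps cells, and at 20.1 CPM in mdx5cv/Ccr2-/- and 54.6 CPM in mdx5cv diaphragm cells. Complement factor B (Cfb) had ratios of 0.305 (0.165 to 0.524) and 0.0389 (0.000979 to 0.219). Ifi213, Ly6a and Slfn1, all known to respond to interferon, complete the 12 lowest with ratios between 0.0685 and 0.199, although the diaphragm log2 ratio of Ly6a became 1.24 under the thinned rule.

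Of 14 measured resident macrophage genes, 11 had a log2 ratio below 0 in the quadriceps and 10 a ratio above 0 in the diaphragm, with medians of −0.61 and 0.16. The growth factor gene Igf1 had 154 CPM in mdx5cv/Ccr2-/- and 94.3 CPM in mdx5cv quadriceps cells, and 249 CPM in mdx5cv/Ccr2-/- and 203 CPM in mdx5cv diaphragm cells. The transcription factor gene Maf had a quadriceps ratio of 0.450 (0.391 to 0.516) and a diaphragm ratio of 0.801 (0.713 to 0.898). Cells with more than 1 UMI of Folr2, Cd163 and Lyve1 were kept out by the rule, so the class holds the resident-poor end of the macrophages in every library.

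Ifi202b, a gene of the interferon-inducible DNA sensor family, was the gene with the highest ratio. It had 62 UMIs in the mdx5cv/Ccr2-/- quadriceps and 0 in the mdx5cv quadriceps, and 86 in the mdx5cv/Ccr2-/- diaphragm and 0 in the mdx5cv diaphragm. With each 0 taken as 3 counts it was at least 47.4-fold and 206-fold higher. Fibroblast-like cells had the same pattern, with 185 CPM in mdx5cv/Ccr2-/- and 0.0 CPM in mdx5cv quadriceps cells, and 188 CPM in mdx5cv/Ccr2-/- and 0.0304 CPM in mdx5cv diaphragm cells. The gene therefore marked the genotype in stromal cells too, while the interferon list went the other way.

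Cd9, Cd36, Fabp4 and Anpep, named by their rank, were also higher without Ccr2. The tetraspanin Cd9 stood at 485 CPM in mdx5cv/Ccr2-/- and 178 CPM in mdx5cv quadriceps cells, a ratio of 2.73 (2.33 to 3.19), and at 447 CPM in mdx5cv/Ccr2-/- and 242 CPM in mdx5cv diaphragm cells, a ratio of 1.84 (1.61 to 2.11). Thinned to 3000 UMIs it was found in 64.1% (52.4 to 74.7) of mdx5cv/Ccr2-/- and 33.1% (25.8 to 41.1) of mdx5cv quadriceps cells, and in 52.6% (39.0 to 66.0) of mdx5cv/Ccr2-/- and 36.8% (32.9 to 40.8) of mdx5cv diaphragm cells. Fibroblast-like cells carry Cd9 themselves, in 73.7% to 78.1%, and give no background for it. Cd36 had ratios of 1.83 (1.47 to 2.27) and 1.84 (1.49 to 2.26), the fatty acid chaperone Fabp4 2.08 (1.61 to 2.67) and 1.97 (1.36 to 2.79), and the aminopeptidase N gene Anpep 2.47 (1.66 to 3.68) and 2.75 (1.68 to 4.38). For Cd36, 1 cell held 32.2% of the UMIs of the mdx5cv/Ccr2-/- quadriceps. Without the richest cell of each library the quadriceps log2 ratio of Cd36 went from 0.84 to 0.47. Cd36 and Fabp4 are abundant in endothelial cells. The 10 endothelial markers summed to 218 CPM in mdx5cv/Ccr2-/- and 113 CPM in mdx5cv quadriceps cells, and to 84.0 CPM in mdx5cv/Ccr2-/- and 66.5 CPM in mdx5cv diaphragm cells. Fabp4 is itself among these markers and gave 169, 81.2, 68.8 and 35.0 CPM of the sums in that order. The sums are therefore no separate measure of endothelial transcripts beside Fabp4, and the part of endothelial transcripts in the result was not tested.

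The genes higher in both muscles past 2-fold were Ifi202b, Anpep, Ear2 and H2-M2. Ear2, an eosinophil-associated ribonuclease, stood at 203 CPM in mdx5cv/Ccr2-/- and 53.7 CPM in mdx5cv quadriceps cells, and at 111 CPM in mdx5cv/Ccr2-/- and 36.0 CPM in mdx5cv diaphragm cells. A single cell held 39.2% of its UMIs in the mdx5cv/Ccr2-/- quadriceps and 45.5% in the mdx5cv/Ccr2-/- diaphragm, and without cells that held a dendritic UMI its diaphragm log2 ratio of 1.5 became −2.11. H2-M2, a class Ib gene, was found in only 6.1% of mdx5cv/Ccr2-/- and 1.82% of mdx5cv quadriceps cells, and in 11.3% of mdx5cv/Ccr2-/- and 4.69% of mdx5cv diaphragm cells, with no thinning. Both genes therefore describe a minority of the class. Casd1, Col14a1, Lilra5, Mmp13 and Pianp complete the 12 highest, with ratios of 1.92 to 5.01 over both muscles. For Mmp13, 1 cell held 52.4% of the UMIs of the mdx5cv/Ccr2-/- quadriceps and 1 cell 39.5% of those of the mdx5cv/Ccr2-/- diaphragm. Without the richest cell of each library the quadriceps log2 ratio of Mmp13 went from 0.9 to 0.37. Lilra5 had only 13 UMIs in mdx5cv/Ccr2-/- and 9 in mdx5cv quadriceps cells.

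Genes of lipid-associated macrophages passed 2-fold upwards without Ccr2 in the quadriceps, and some of them were above 1 in the diaphragm as well. All 24 listed genes were measured, of which 6 passed 2-fold upwards in quadriceps cells (Mmp12, Fabp5, Itgax, Cd9, Fabp4 and Atp6v0d2) and 0 in diaphragm cells, with medians of 0.36 and −0.16. Of these 6, Cd9, Fabp4, Mmp12 and Atp6v0d2 had diaphragm ratios of 1.84, 1.97, 1.42 and 1.35. Atp6v0d2 was held by only 6 class II-rich cells of the mdx5cv/Ccr2-/- diaphragm, and 1 of them held 41.7% of its UMIs. Without the richest cell of each library its diaphragm log2 ratio was −0.15. The elastase gene Mmp12 stood at 744 CPM in mdx5cv/Ccr2-/- and 57.3 CPM in mdx5cv quadriceps cells, a ratio of 13 (10.4 to 16.3), and at 178 CPM in mdx5cv/Ccr2-/- and 125 CPM in mdx5cv diaphragm cells, a ratio of 1.42 (1.14 to 1.75). Single cells held 35.4% and 42.7% of its UMIs in the mdx5cv/Ccr2-/- and the mdx5cv quadriceps. Fabp5 had ratios of 3.02 (2.68 to 3.41) and 0.638 (0.511 to 0.788), and the integrin Itgax 2.95 (2.27 to 3.83) and 0.760 (0.550 to 1.03). Whether the genotype ratios differed between the muscles was not tested.

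Between muscles, the diaphragm was set against the quadriceps of the same genotype. In mdx5cv/Ccr2-/- cells 132 of 5162 genes (2.56%) were at least 2-fold higher in the diaphragm and 104 (2.01%) at least 2-fold lower. In mdx5cv cells 86 (1.67%) were higher and 17 (0.329%) lower. In both genotypes 34 (0.659%) were higher and 7 (0.136%) lower, and 8 (0.155%) were past 2-fold in opposite directions. The 7 lower included Fn1, Fabp4, S100a4 and Retnla, and the transcripts 2310022A10Rik and Gm26917, which fall outside the naming rule. Among the 8 in opposite directions were the myofibre genes Myl1, Mylpf, Tnnc2 and Tnnt3, named after their values were seen. In the mdx5cv/Ccr2-/- quadriceps 1 cell held 82.1% of the Tnnt3 UMIs, and without the richest cell of each library the log2 ratio of Tnnt3 without Ccr2 was 0.18.

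Heat shock chaperones were higher in the diaphragm in both genotypes. All 12 listed genes were measured and lay above 0 in both, with 7 past 2-fold in mdx5cv/Ccr2-/- cells, 8 in mdx5cv cells and 7 in both, and medians of 1.02 and 1.43. Hspa1a, the inducible HSP70, stood at 1782 CPM in the diaphragm and 869 CPM in the quadriceps of mdx5cv/Ccr2-/- mice, a ratio of 2.05 (1.86 to 2.27). In mdx5cv mice it stood at 2162 CPM in the diaphragm and 814 CPM in the quadriceps, a ratio of 2.66 (2.51 to 2.81). Hspb1, a small heat shock protein, had ratios of 3.87 (2.57 to 5.95) in mdx5cv/Ccr2-/- and 4.19 (3.33 to 5.33) in mdx5cv cells, the HSP90 gene Hsp90aa1 2.33 (2.02 to 2.70) and 3.77 (3.5 to 4.07), and the co-chaperone Dnajb1 2.15 (1.34 to 3.52) and 4.82 (3.79 to 6.22). For Hspb1, 1 cell held 47.5% of the UMIs of the mdx5cv/Ccr2-/- diaphragm. Without the richest cell of each library the log2 ratio of Hspb1 without Ccr2 went from 1.84 to 1.38.

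Immediate early genes, which dissociation and activation both induce within minutes, followed the same pattern. Of 20 measured, 19 lay above 0 in both genotypes, 9 passed 2-fold in each genotype and 5 in both (Klf2, Nr4a1, Dusp1, Ier3 and Egr1), with medians of 0.88 in mdx5cv/Ccr2-/- and 0.94 in mdx5cv cells. Fos stood at 1456 CPM in the diaphragm and 787 CPM in the quadriceps of mdx5cv/Ccr2-/- mice, and at 1744 CPM in the diaphragm and 749 CPM in the quadriceps of mdx5cv mice. Egr1 had ratios of 3.23 (2.41 to 4.38) and 3.55 (3.03 to 4.18). Fibroblast-like cells of the same libraries had immediate early medians of 1.15 in mdx5cv/Ccr2-/- and 1.45 in mdx5cv, and heat shock medians of 0.34 and 0.69. The other C1q-high macrophages had heat shock medians of 1.42 and 1.64. The sets share their dissociation and library with the class, and the part of dissociation in these values was not tested.

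**Figure D4:**
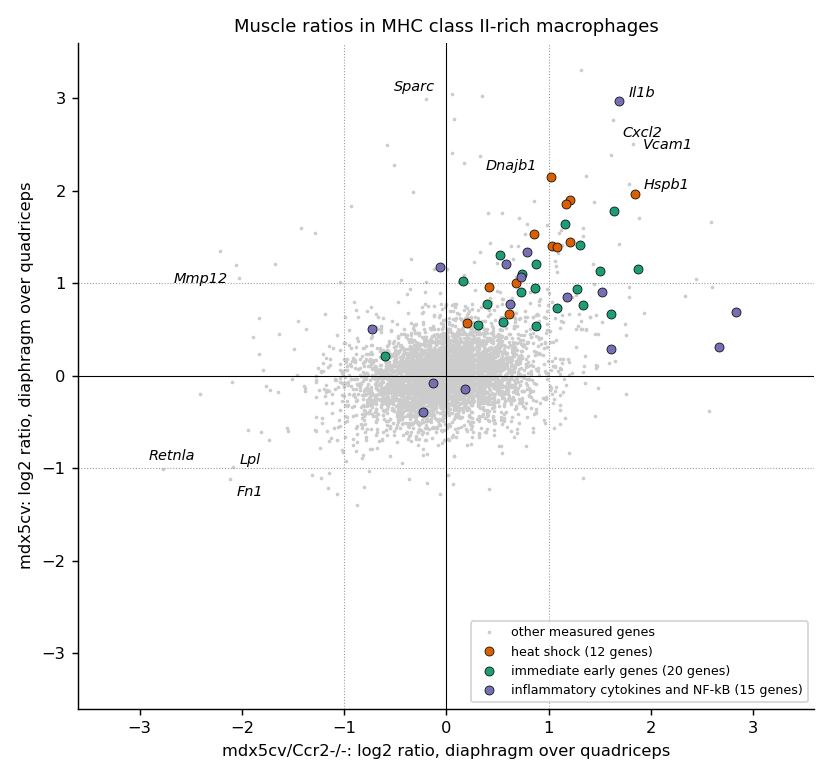
Log2 ratios of diaphragm over quadriceps in class II-rich macrophages, mdx5cv/Ccr2-/- on the horizontal and mdx5cv on the vertical axis, 1 point for each measured gene with a symbol of its own, with dotted lines at 2-fold. All 12 heat shock genes lie above 0 on both axes, as do 19 of 20 immediate early genes.

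Of the listed cytokine, NF-kB and chemokine genes, Il1b, Cxcl2 and Ccl3 were the ones past 2-fold higher in the diaphragm in both genotypes. Of 15 measured cytokine and NF-kB genes 6 in mdx5cv/Ccr2-/- and 5 in mdx5cv cells passed 2-fold, 1 of them in both (Il1b), with medians of 0.73 and 0.78. Il1b, which encodes interleukin-1 beta, stood at 218 CPM in the diaphragm and 64.4 CPM in the quadriceps of mdx5cv/Ccr2-/- mice, and at 311 CPM in the diaphragm and 35.2 CPM in the quadriceps of mdx5cv mice. Its ratios were 3.39 (2.41 to 4.84) and 8.82 (6.79 to 11.7), although 1 cell held 51.1% of the UMIs of the mdx5cv/Ccr2-/- quadriceps. The neutrophil attractant Cxcl2 had ratios of 3.15 (2.63 to 3.8) and 7.11 (6.04 to 8.41), and Ccl3, which attracts monocytes and T cells, 2.57 (2.08 to 3.20) and 3.10 (2.71 to 3.55). Of 14 measured chemokines 5 passed 2-fold upwards and 1 downwards (Ccl5) in mdx5cv/Ccr2-/- cells, against 4 upwards and 0 downwards in mdx5cv cells, with medians of 0.59 and 0.71, and Cxcl2 and Ccl3 were the 2 past it in both. For Ccl5, 1 cell held 96.4% of the UMIs of the mdx5cv/Ccr2-/- quadriceps. Without the richest cell of each library the log2 ratio of Ccl5 without Ccr2 became 0.67. Ccl6 had ratios of 0.565 (0.478 to 0.666) and 0.550 (0.513 to 0.589), and Ccl9 0.644 (0.532 to 0.777) and 0.620 (0.571 to 0.674), so that both were lower in the diaphragm.

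Adhesion and surface genes were among those with the highest smaller ratio. Vcam1, the ligand of the integrin VLA-4, stood at 47.0 CPM in the diaphragm and 9.6 CPM in the quadriceps of mdx5cv/Ccr2-/- mice, and at 91.8 CPM in the diaphragm and 11.9 CPM in the quadriceps of mdx5cv mice. The activating receptor gene Lilra5 had ratios of 4.15 (2.19 to 8.39) and 7.17 (3.69 to 16.0), Ctla2b, a cathepsin inhibitor-like gene, 4.37 (2.38 to 8.57) and 4.35 (2.64 to 7.62), and Phlda1 6.92 (4.28 to 11.8) and 3.40 (2.69 to 4.36). Cx3cr1 had ratios of 1.97 (1.68 to 2.31) and 1.54 (1.41 to 1.68), and Fcrls, an Fc receptor-like gene shared with microglia, 3.12 (2.54 to 3.87) and 1.63 (1.45 to 1.83). Of 11 measured genes of a microglia list, 9 lay above 0 in both genotypes, with medians of 0.47 in mdx5cv/Ccr2-/- and 0.42 in mdx5cv cells. The medians over all measured genes were −0.02 and 0.01. In the other C1q-high macrophages the list had medians of 0.43 and 0.5, so this was not particular to the class. One of the listed genes, Sparc, is also a fibroblast gene, with ratios of 1.04 (0.605 to 1.77) and 9.45 (7.12 to 12.8).

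Fibroblast transcripts differed between the libraries of the class in the same direction in mdx5cv cells. The 10 fibroblast markers summed to 455 CPM in the diaphragm and 372 CPM in the quadriceps of mdx5cv/Ccr2-/- mice, and to 1212 CPM in the diaphragm and 315 CPM in the quadriceps of mdx5cv mice. In fibroblast-like cells they summed to 45624 to 63338 CPM. Dcn, thinned to 3000 UMIs, was found in 14.0% of diaphragm and 7.69% of quadriceps cells of the class in mdx5cv/Ccr2-/- mice, and in 19.3% of diaphragm and 8.28% of quadriceps cells in mdx5cv mice. Il1b was found in at most 0.28% of fibroblast-like cells, and Cx3cr1 in at most 1.34%. The part of fibroblast transcripts in the muscle ratios of these or other genes was not tested.

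The C-type lectin Mgl2 was among 14 measured resident genes, all of which lay above 0 in mdx5cv/Ccr2-/- cells and 11 of which did in mdx5cv cells, with medians of 0.82 and 0.18. Mgl2 had ratios of 2.63 (1.89 to 3.69) and 3.0 (2.44 to 3.72). Ccl8, a chemokine of resident macrophages, had ratios of 5.43 (3.78 to 7.98) and 1.84 (1.59 to 2.14), but 66.5% of its UMIs in the mdx5cv/Ccr2-/- diaphragm lay in 1 cell. Without the richest cell of each library its log2 ratio was 1.22 in both genotypes. The platelet factor gene Pf4 stood at 871 CPM in the diaphragm and 352 CPM in the quadriceps of mdx5cv/Ccr2-/- mice, and at 677 CPM in the diaphragm and 465 CPM in the quadriceps of mdx5cv mice.

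Fn1, Lpl, S100a4, Fabp4 and Lgals3 were lower in the diaphragm in both genotypes. Fibronectin (Fn1) stood at 126 CPM in the diaphragm and 565 CPM in the quadriceps of mdx5cv/Ccr2-/- mice, a ratio of 0.223 (0.172 to 0.286), and at 173 CPM in the diaphragm and 383 CPM in the quadriceps of mdx5cv mice, a ratio of 0.453 (0.407 to 0.504). Lipoprotein lipase (Lpl) had ratios of 0.231 (0.191 to 0.278) and 0.499 (0.461 to 0.539), the calcium-binding protein gene S100a4 0.400 (0.344 to 0.465) and 0.473 (0.446 to 0.501), Fabp4 0.408 (0.279 to 0.586) and 0.431 (0.340 to 0.548), and the galectin-3 gene Lgals3 0.339 (0.308 to 0.373) and 0.658 (0.629 to 0.689). Of the 24 lipid-associated genes 9 were past 2-fold lower in mdx5cv/Ccr2-/- and 1 in mdx5cv cells, with medians of −0.59 and −0.15. The 13 measured genes of growth factors and matrix did not share a direction: 0 were past 2-fold higher and 2 lower in mdx5cv/Ccr2-/- cells, against 4 higher and 1 lower in mdx5cv cells, with medians of −0.11 and 0.36. Retnla, a gene of alternatively activated macrophages, had ratios of 0.139 (0.0993 to 0.190) and 0.493 (0.458 to 0.531), but 98.5% of its UMIs in the mdx5cv/Ccr2-/- quadriceps lay in 1 cell, and without the richest cell of each library its log2 ratio without Ccr2 became 1.48. Tubgcp4 and Plac8 were also among the 8 lowest.

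The class II partners had muscle medians of −0.13 in mdx5cv/Ccr2-/- and 0.24 in mdx5cv cells, none of the 9 past 2-fold, and H2-Eb1 had ratios of 1.02 (0.981 to 1.06) and 1.53 (1.5 to 1.57). Among costimulators that T cells need beside the class II signal, Cd86 had ratios of 1.94 (1.38 to 2.75) and 1.83 (1.49 to 2.26), and Cd83 of 1.56 (1.20 to 2.05) and 2.71 (2.32 to 3.17). Of 7 measured costimulation genes 1 passed 2-fold in each genotype, Icosl in mdx5cv/Ccr2-/- and Cd83 in mdx5cv cells.

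Counted per cell at 3000 UMIs, Il1b, Hspa1a and Cx3cr1 were found in a larger share of diaphragm than of quadriceps cells in both genotypes. The thinned sets held 78 class II-rich cells of the mdx5cv/Ccr2-/- quadriceps, 157 of the mdx5cv quadriceps, 57 of the mdx5cv/Ccr2-/- diaphragm and 595 of the mdx5cv diaphragm, with 4, 8, 5 and 66 shallower cells left out. Il1b was found in 26.3% of diaphragm and 7.69% of quadriceps cells without Ccr2, and in 28.4% of diaphragm and 7.01% of quadriceps cells with it. Hspa1a was found in 86.0% of diaphragm and 61.5% of quadriceps cells without Ccr2, and in 81.7% of diaphragm and 52.9% of quadriceps cells with it, against 25.3% to 69.4% of fibroblast-like cells. Cx3cr1 was found in 70.2% of diaphragm and 51.3% of quadriceps cells without Ccr2, and in 71.4% of diaphragm and 54.1% of quadriceps cells with it. Il1b was thus carried by a minority of the class in every library, and Hspa1a by the majority. Retnla, whose summed ratio without Ccr2 was below 1, was found in 3.51% (0.428 to 12.1) of diaphragm and 2.56% (0.312 to 8.96) of quadriceps cells without Ccr2, and in 2.69% of diaphragm and 5.1% of quadriceps cells with it.

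**Figure D5:**
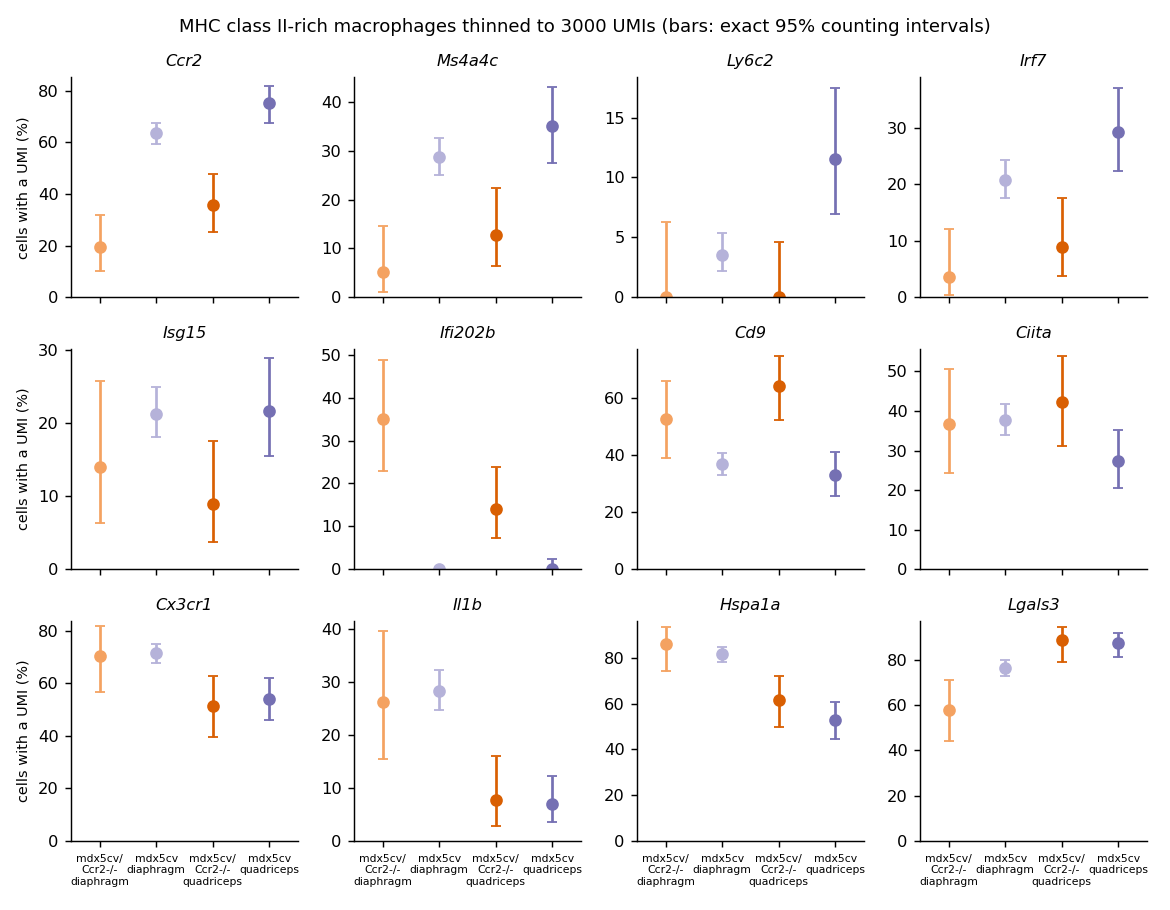
Percentage of class II-rich macrophages with a UMI of each of 12 genes after thinning every cell to 3000 UMIs, 1 point for each library with its exact 95% counting interval. Ccr2, Ms4a4c and Irf7 are lower in both mdx5cv/Ccr2-/- libraries, and Il1b, Hspa1a and Cx3cr1 are higher in both diaphragms.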

How the data were processed

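Single-cell libraries were made by the submitters with the 10x Genomics 3′ v3.1 workflow, per the labels' protocols. The authors deposited raw UMI counts per gene and barcode for 32285 genes, written by Cell Ranger 6.1.2 per the file headers; the submitters' processing notes name mm10 as the build. The sources used here do not give the handling of introns or of empty droplets. The counts were used as deposited, with no integration and no clustering. UMIs were summed over the chosen cells of each library, scaled to CPM, and compared as ratios with exact conditional binomial 95% intervals. Shares carry exact Clopper-Pearson 95% intervals. Log2 ratios used a pseudocount of 5 CPM. Doublets were left in, and removal by Scrublet scores (scanpy 1.11.5) at 0.8% per 1000 barcodes was an alternative. Fibroblast-like cells had at least 3 Pdgfra UMIs and at least 20 UMIs of matrix genes. Named genes were the 12 highest and 12 lowest by the smaller ratio over both muscles (8 and 8 over both genotypes, 12 and 12 over the 4 libraries against other macrophages), beside list members. Python 3.11.15, numpy 2.4.6, scipy 1.17.1, pandas 2.3.3 and matplotlib 3.10.9 were used. The procedures were tested on simulated data. The members and the gene lists were chosen with earlier results of these data known. Some of the genes that the naming rule reaches are not reported here.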

Additional observations from a re-analysis of the deposited data

Results flagged for a closer look

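In 5 cases the same contrast had opposite signs in the 2 groups it was made in, with a list median of at least 0.3 in size on both sides or a listed gene past 2-fold on both, and the difference was not tested in any of them. Other lists also had medians of opposite sign, of smaller size on at least 1 side: the lipid-associated genes, for example, had 0.36 in the quadriceps and −0.16 in the diaphragm by genotype. Mmp12 had a log2 ratio of diaphragm over quadriceps of −2.03 in mdx5cv/Ccr2-/- and 1.06 in mdx5cv class II-rich macrophages. The troponin gene Tnnt3 had −1.42 in mdx5cv/Ccr2-/- and 1.60 in mdx5cv cells, and the muscle cell markers, of which 2 were measured (Acta1 and Tnnt3), had a median of −1.17 in mdx5cv/Ccr2-/- and 1.72 in mdx5cv cells. In the mdx5cv/Ccr2-/- quadriceps the richest cell for each gene held 82.1% of the Tnnt3 and 95.4% of the Acta1 UMIs. Without the richest cell of each library, a setting added after the data were seen, the log2 ratios without Ccr2 were 0.18 for Tnnt3 and 2.41 for Acta1. The 1 measured neutrophil marker, Csf3r, had 0.46 in mdx5cv/Ccr2-/- and −0.31 in mdx5cv cells. The 5 measured fibroblast markers had a median log2 ratio of mdx5cv/Ccr2-/- over mdx5cv of 0.37 in the quadriceps and −1.86 in the diaphragm. Muscle cell and fibroblast transcripts belong to other cell types, and their source in these barcodes was not tested. Csf3r was spread over the class, with at most 3 UMIs in any cell. Without thinning it was found in 8.54% of mdx5cv/Ccr2-/- and 35.8% of mdx5cv quadriceps cells, and in 12.9% of mdx5cv/Ccr2-/- and 19.5% of mdx5cv diaphragm cells. It is therefore not a marker of neutrophils alone in these barcodes, and its source was not tested either.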

How the results depend on the processing

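Directions were largely kept under the 11 alternatives, while counts of genes past 2-fold depended on them. Of 220 values of list medians of at least 0.5 in size, 216 kept their sign, as did 876 of 880 values for named genes. The genes at least 2-fold higher without Ccr2 in the diaphragm, 10 as reported, numbered 137 with the rule on cells thinned to 5000 UMIs, 17 with doublets removed, 21 without cells with dendritic UMIs, 18 with C1q and class II both at least 20, 35 without cells with UMIs of other lineages, 29 with a pseudocount of 1 CPM, 103 with no filter on low genes and 39 as means over cells. With no filter the counts were 218 higher and 249 lower in mdx5cv/Ccr2-/- than in mdx5cv quadriceps cells and 313 lower between diaphragm cells, 428 higher and 401 lower in the diaphragm of mdx5cv/Ccr2-/- mice, and 198 higher and 40 lower in that of mdx5cv mice. A pseudocount of 1 CPM gave 160 lower in the mdx5cv/Ccr2-/- diaphragm than in its quadriceps. The thinned rule gave 232 higher in mdx5cv/Ccr2-/- mice, and 169 higher and 10 lower in mdx5cv mice. It also moved the genotype share ratio of the diaphragm to 0.524 of C1q-high macrophages and 0.241 of all cells, and the muscle ratio of all mdx5cv cells to 1.22. Signs turned for the fibroblast list between genotypes in the diaphragm (1.53 thinned, 0.15 with doublets removed, 0.13 without other lineages), the monocyte list between muscles without Ccr2 (0.07 thinned), Cxcl9 (1.45) and Ly6a (1.24) in the diaphragm when thinned, and Ear2 there without dendritic UMIs (−2.11). An alternative without the richest cell of each library was chosen after seeing the data. In it Retnla turned to 1.48 and Ccl5 to 0.67 between muscles without Ccr2. The cause of these moves was not tested. No paired analysis was possible because each group has 1 library. The sums of 62 and 82 cells without Ccr2 limit what can be said of low genes.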
